A study of Mus musculus with 6 samples.

Results

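Chromatin modifiers and remodellers are the enzymes, and the subunits of their complexes, that add, remove or read chemical marks on histones and DNA or that move nucleosomes. They were chosen here by gene symbol alone, so a member need not act on histones or DNA. The symbols were those of histone deacetylases (Hdac), sirtuins, lysine demethylases (Kdm), methyltransferases (Kmt2, Kmt5, Setd, Ezh1 and Ezh2) and acetyltransferases (Kat, Crebbp and Ep300). DNA methyltransferases (Dnmt), TET dioxygenases, the Smarc and Chd remodellers and the Brd bromodomain proteins were also taken, leaving out Kdm5d. The rule found 102 of the 18732 genes in the authors' deposited table. Of these, 98 are coding genes of 9 classes, called coding members here. The other 4 are 3 pseudogenes and Brd3os, a gene beside Brd3 on the other strand. Brd3os is also annotated as coding, with 84 residues, but was kept apart because it is named for its place opposite Brd3. All 11 deacetylases, 7 sirtuins, 9 acetyltransferases, 18 methyltransferases, 17 demethylases, 13 Smarc genes, 10 Chd genes and 7 Brd genes had an adjusted p, and so did 5 of the 6 genes of DNA methylation. The exception was Dnmt3b, with a mean level of 6.74 normalized counts, which leaves 97 tested coding members.

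RNA was sequenced after translating ribosome affinity purification from mouse striatum, in 3 morphine and 3 saline libraries. Mice of both groups carried Cre at Oprm1, the mu opioid receptor gene, together with RosaLSL-GFP-L10a, which makes a GFP-tagged ribosomal protein after Cre has acted, so that antibodies against GFP pull down the RNA on tagged ribosomes. The Cre genotype is Oprm1Cre/+ for the samples, but Oprm1Cre/Cre where the series design names it. Cells that used Cre at any earlier time keep the tag, and an animal's age is not given in the sources used here. Morphine was injected under the skin at doses that climbed through 20, 40, 60 and 100 mg/kg over 5 days, and the controls received saline. Tissue was collected 24 h after the final injection, and 2 brains made up a library. All values come from the authors' comparison of the groups. Values per library were not analysed here, depth is unknown, and the authors' SE stands for the spread. A positive log2 fold change was taken to mean higher after morphine, going by the name of the sheet with increases, since the table names no numerator. Were the ratio the other way round, all signs would flip.

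Acetylation of histone lysines, set by acetyltransferases and removed by deacetylases and sirtuins, is a mark of active chromatin, and bromodomain proteins bind it. Methylation of histone lysines can mark active or silent chromatin, depending on the lysine, and is set and removed by separate enzyme families. SWI/SNF, ISWI and CHD complexes use ATP to slide or evict nucleosomes. In the striatum, the deacetylase Hdac5, the acetyltransferase Crebbp and other members have been studied for their part in lasting responses to drugs of abuse, largely through the activity or place of the protein in the cell.

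None of the 97 tested coding members passed the authors' adjusted p of 0.05, a two-sided DESeq2 Wald test with Benjamini-Hochberg adjustment over all genes. With all values centred on the median of coding genes with no predicted signal or membrane segment, Chd7 and Kmt2d passed as higher. Over all genes, 2589 passed with that centring, against 2383 without it. Of all tested genes in the authors' deposited table, 13.8% passed, 11.8% higher and 2.01% lower after morphine. The one row of the rule that passed was a pseudogene, Smarca5-ps, which fell by 2.06 on the log2 scale. At an unadjusted p under 0.05 there were 5 coding members, or 5.15%, against 22.2% of all tested genes in the authors' deposited table. They were Chd7 and Kmt2d with values above 0 and Hdac3, Hdac2 and Kat2a with values below 0. Coding members had a median log2 fold change of -0.04 in the authors' deposited table, and all tested genes one of -0.01. The members' values ran from -0.31 to 0.48, with a middle part between the quartiles of -0.14 and 0.05.

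The called genes of this comparison are mostly ones with a predicted signal or membrane segment, of which 46.3% passed, 46.3% higher and 0.0553% lower, with a median of 0.58 and 59.1% at an unadjusted p under 0.05. Only Chd4, Sirt3 and Kdm8 among the coding members have such a segment by the same rule. The closer background is therefore the 9848 tested coding genes with no predicted segment, of which 4.23% passed (2.82% higher and 1.41% lower) with a median of -0.06 in the authors' deposited table. At an unadjusted p under 0.05 they made up 10.9%. Values above 0 were held by 37.6% of them, 34.5% of those with a mean of at least 100 and 48.3% of all tested genes. Among the coding members the share above 0 was 32.0%. An absolute change of over 1.5-fold was reached by 0 of 97 coding members by 6.86% of coding genes with no predicted segment, and by 2.98% of those with a mean of at least 100, which all 97 members have. These shares are descriptions, since genes are not replicates of the treatment.

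**Figure D1:**
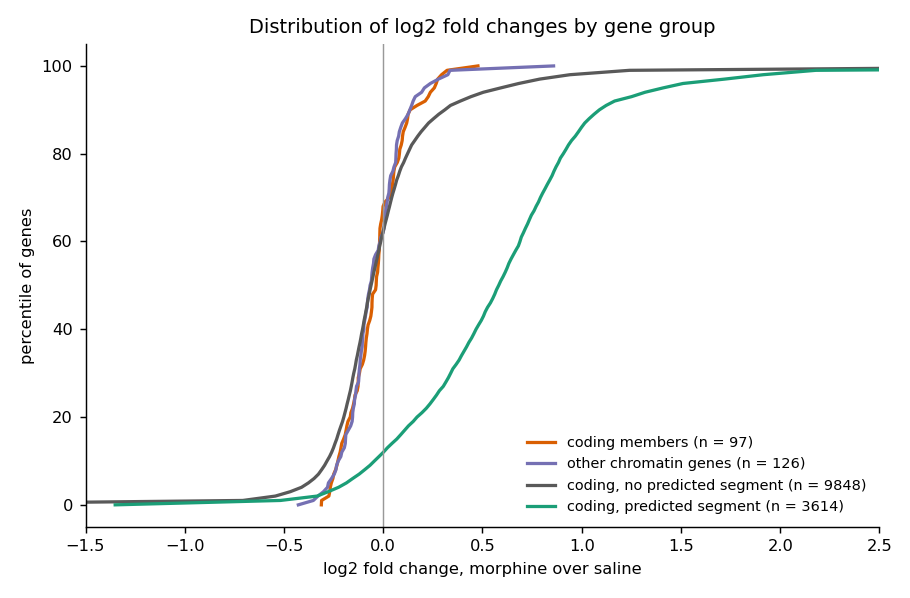
Distribution of the authors' log2 fold changes, morphine over saline (horizontal axis), as the percentile of genes (vertical axis), for the 97 coding members, 126 other chromatin genes, 9848 coding genes with no predicted signal or membrane segment and 3614 with one. The lines of the coding members and of the other chromatin genes lie beside that of genes with no segment, with shorter tails, while genes with a segment lie to the right, with a median of 0.58.

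The authors' SEs set how precisely each member was measured. The largest p that was called, 0.00689, corresponds to a Wald statistic of 2.70. At that statistic, the smallest log2 change that could be called had a median of 0.36 over the coding members, from 0.32 for the most precise to 0.85 for Kdm4d. The 95% interval, taken from the authors' deposited log2 fold change and SE, lay within 1.5-fold of no change in either direction for 88 of 97 members and within 2-fold for all 97. Among coding genes with no predicted segment and a mean of at least 100, these shares were 79.0% and 96.4%. These sizes apply to the estimate, and are not limits on the true change.

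**Figure D2:**
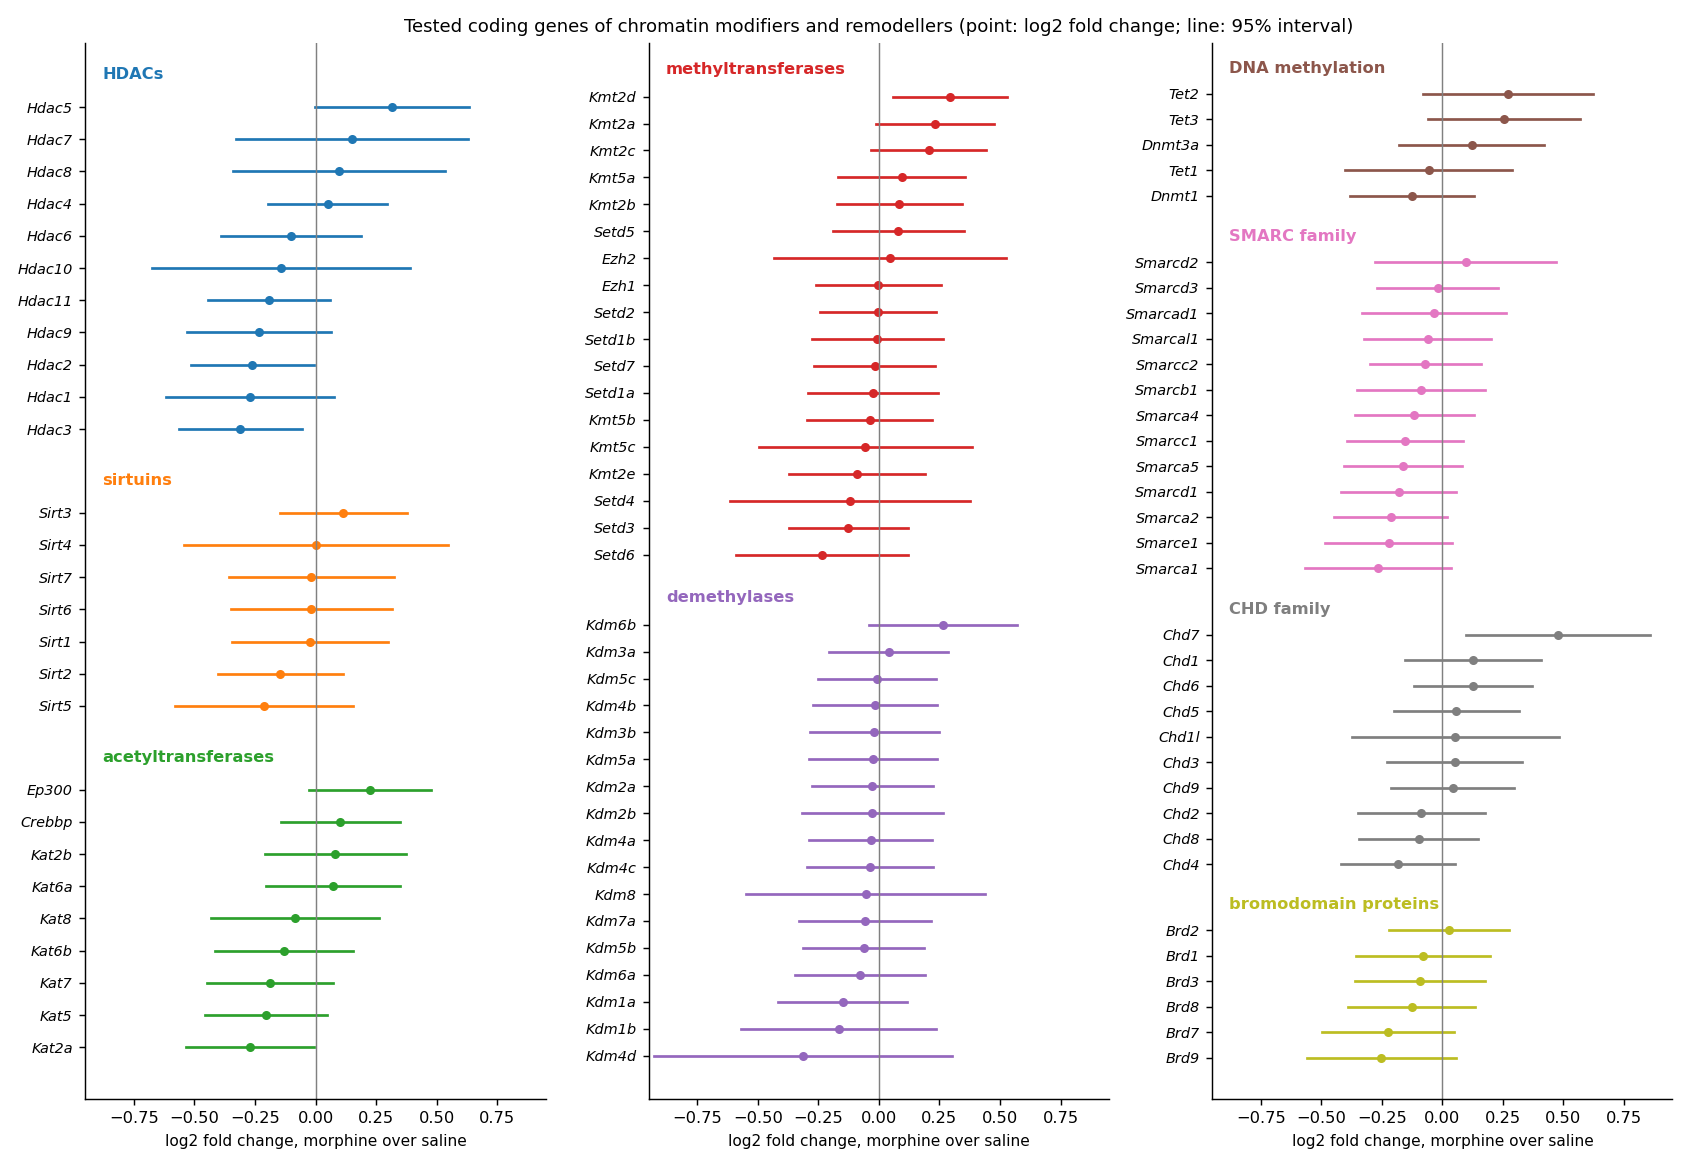
Log2 fold change, morphine over saline (horizontal axis), of tested coding members by class, with 95% intervals from the authors' SE. Values run from -0.31 (Kdm4d and Hdac3) to 0.48 (Chd7), and the intervals of Chd7 and Kmt2d lie above 0 and those of Hdac3, Hdac2 and Kat2a below 0, before adjustment for the number of genes.

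The zinc-dependent deacetylases had the lowest class median, -0.14, and 7 of 11 stood below 0. By a mean weighted by 1 over the squared SE they were at -0.11, above the Brd proteins (-0.14) and the Smarc genes (-0.12). Class I enzymes, of which Hdac1, Hdac2 and Hdac3 are catalytic subunits of nuclear corepressor complexes, had a median of -0.27 in the authors' deposited table. Hdac3, the enzyme of the NCoR and SMRT corepressors, stood at -0.31 (SE 0.13, adjusted p = 0.0996 by DESeq2). Hdac2 stood at -0.26 (SE 0.13, adjusted p = 0.208) and its close relative Hdac1 at -0.27 (SE 0.18, adjusted p = 0.410) according to the authors' deposited table. The fourth, Hdac8, was at 0.10 with an SE of 0.22. Class IIa enzymes, which shuttle between nucleus and cytoplasm under the control of calcium-dependent kinases, went both ways. By the authors' deposited table, Hdac5 was at 0.32 (SE 0.16, adjusted p = 0.230), Hdac7 at 0.15 (SE 0.24), Hdac4 at 0.05 (SE 0.13) and Hdac9 at -0.23 (SE 0.15). The tubulin deacetylase Hdac6, its class IIb partner Hdac10 and the class IV enzyme Hdac11 were at -0.10, -0.14 and -0.19 in the authors' deposited table. The interval of Hdac5 ran from 0.999-fold to 1.55-fold, and that of Hdac3 from 0.676-fold to 0.961-fold.

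The sirtuins, NAD-dependent deacylases, had a median of -0.02 in the authors' deposited table. The nuclear members Sirt1, Sirt6 and Sirt7 were all at -0.02 with an SE of 0.17. Of the mitochondrial members, the authors' deposited table had Sirt3 at 0.12 (SE 0.13) and Sirt5 at -0.21 (SE 0.19), the highest and the lowest of the class. Sirt2, a mainly cytoplasmic enzyme that is abundant in myelin-forming cells, was at -0.14 with an SE of 0.13 and an adjusted p of 0.621 by DESeq2. The oligodendrocyte markers of the same deposited table passed as higher in 6 of 8. That stands against 11.8% of all tested genes and 46.3% of coding genes with a predicted segment. The part of oligodendrocytes in the value of Sirt2 was not tested.

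The large coactivators Ep300 and Crebbp were at 0.22 (SE 0.13, adjusted p = 0.313) and 0.10 (SE 0.12, adjusted p = 0.745) according to the authors' deposited table. The GNAT and MYST enzymes had a median of -0.13 and values on both sides of 0. Kat2a, the GCN5 subunit of the SAGA complex, was lowest at -0.27 (SE 0.13, adjusted p = 0.209), and the TIP60 enzyme Kat5 and the HBO1 enzyme Kat7 were at -0.20 and -0.19 (SE 0.13 each) in the authors' deposited table. Kat2b and Kat6a were at 0.08 and 0.07. The class median was -0.08.

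Among the methyltransferases, the KMT2 family held 4 of 5 values above 0 and a median of 0.21 in the authors' deposited table. Of this family, Kmt2a, Kmt2b, Kmt2c and Kmt2d encode enzymes that methylate lysine 4 of histone H3. Kmt2d was at 0.29 (SE 0.12, adjusted p = 0.0939), Kmt2a at 0.23 (SE 0.12, adjusted p = 0.262), Kmt2c at 0.21 (SE 0.12, adjusted p = 0.335) and Kmt2b at 0.08 (SE 0.13). Kmt2e, a shorter relative, was at -0.09 (SE 0.14). Ezh1 and Ezh2, the catalytic subunits of Polycomb repressive complex 2, had intervals of 0.835-fold to 1.19-fold and 0.741-fold to 1.44-fold. Setd2, the enzyme of histone H3 lysine 36 trimethylation, had an interval of 0.846-fold to 1.18-fold. The lowest of the class in the authors' deposited table was Setd6 at -0.24 (SE 0.18, adjusted p = 0.520). The median of the 8 Setd genes was -0.02.

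The demethylases showed the tightest values, with an SD of the authors' Wald statistic of 0.61 over 17 genes. Their median was -0.03, and 15 of 17 stood below 0, but 12 of 17 stood above the median of coding genes with no predicted segment. Kdm6b, a demethylase of Polycomb's lysine 27 mark that responds quickly to stimuli in many cells, was highest at 0.27 (SE 0.16, adjusted p = 0.330) according to the authors' deposited table, while its X-linked relative Kdm6a was at -0.08 (SE 0.14). Kdm4d was lowest at -0.31 with an SE of 0.31, the largest SE of the tested coding members. Kdm1a, the flavin-dependent enzyme LSD1, was at -0.15 (SE 0.14). The lysine 4 demethylases Kdm5a, Kdm5b and Kdm5c, which act on the product of the KMT2 family, were at -0.02, -0.06 and -0.0090 in the authors' deposited table.

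The genes of DNA methylation had the highest class median, 0.12, over 5 tested genes. Tet2 and Tet3, dioxygenases that oxidize 5-methylcytosine, were at 0.27 (SE 0.18, adjusted p = 0.415) and 0.26 (SE 0.16, adjusted p = 0.381) according to the authors' deposited table, and Tet1 was at -0.06 (SE 0.18). The maintenance enzyme Dnmt1 was at -0.13 (SE 0.13) and Dnmt3a, the main de novo enzyme of neurons, at 0.12 (SE 0.15, adjusted p = 0.759). Dnmt3b, untested, had 1.08 with an SE of 1.24.

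The Smarc genes had a median of -0.12, and 12 of 13 stood below 0. Over coding genes with no predicted segment, 6147 of 9848 stood below 0. Among them, 9 are subunits of SWI/SNF complexes, of which 8 stood below 0, with the same median of -0.12 in the authors' deposited table. The alternative motor ATPases Smarca2 (BRM) and Smarca4 (BRG1) were at -0.21 (SE 0.12, adjusted p = 0.293) and -0.12 (SE 0.13, adjusted p = 0.703). The core subunits Smarce1, Smarcc1, Smarcb1 and Smarcc2 were at -0.22, -0.16, -0.09 and -0.07 in the authors' deposited table. The ISWI motors Smarca1 and Smarca5 were at -0.27 (SE 0.15) and -0.16 (SE 0.12). Smarcd2, at 0.10 (SE 0.19), was the exception. With values centred on the median of coding genes with no predicted segment, 9 of the 13 remained below the centre, and the class median was -0.05.

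The Chd remodellers had a median of 0.05, and 7 of 10 stood above 0. Chd7, the CHARGE syndrome gene, did not pass but had the highest value of all tested coding members in the authors' deposited table, 0.48 (SE 0.19, 1.39-fold, interval 1.07 to 1.81, adjusted p = 0.0849). It had a mean level of 34.6 normalized counts per kb of merged exons, the lowest of its class. Chd7 is also known for its part in the oligodendrocyte lineage. Precursor markers of that lineage passed as higher in 4 of 4, with a median of 1.25 in the authors' deposited table. By comparison, 11.8% of all tested genes and 46.3% of coding genes with a predicted segment passed as higher. The part of oligodendrocyte precursors in the value of Chd7 was not tested. The NuRD motors stood at -0.18 (Chd4, SE 0.12, adjusted p = 0.414), 0.05 (Chd3, SE 0.14) and 0.06 (Chd5, SE 0.13), and the autism gene Chd8 at -0.10 (SE 0.13). The Brd proteins had a median of -0.13, with 6 of 7 below 0. Brd9, a subunit of a SWI/SNF complex, was lowest at -0.25 (SE 0.16, adjusted p = 0.374), and Brd2, the highest, stood at 0.03 (SE 0.13) in the authors' deposited table.

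The order of the class medians, from DNA methylation to the deacetylases, was not tested, since members of a class are not replicates of the treatment. The medians ran from -0.14 to 0.12 over the 9 classes. No class held a called coding member.

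The length of the protein, which the rule did not use, moved with the members' values. Across the 97 genes, the log2 fold change of the authors' deposited table had a Pearson r of 0.46 and a Spearman rho of 0.39 with the log2 of the protein length, as a description across genes that share the same libraries. Above 2000 residues, 11 of 14 members stood above 0 with a median of 0.09, against 4 of 21 and a median of -0.08 for those of 301 to 500 residues. The 14 include Kmt2a, Kmt2b, Kmt2c and Kmt2d, Crebbp, Ep300 and Chd7. Without these 14, r was 0.25 and rho 0.20. The other coding genes with no predicted segment had a relation of the same sign (r 0.17, rho 0.21, 9754 genes), weaker than that of all 97 members. For those with a mean of at least 100, as all 97 members have, r was 0.20 and rho 0.24 (8367 genes). The medians of the 9754 were -0.07 from 301 to 500 residues and 0.07 above 2000, where 66.0% stood above 0. The members' values had an r of 0.17 with the GC share of the coding sequence and 0.07 with the log2 mean level.

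**Figure D3:**
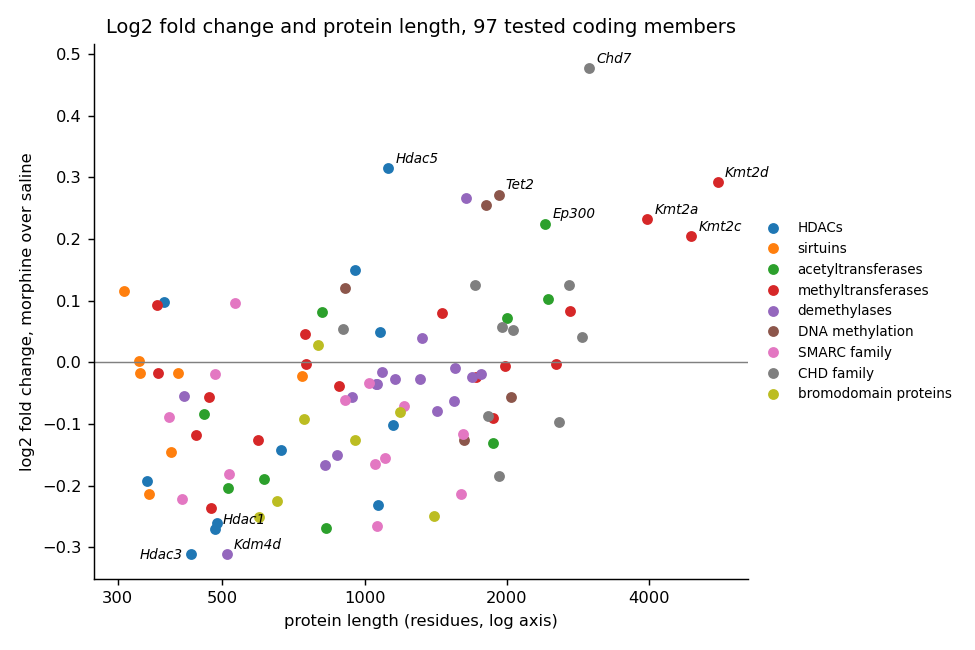
Log2 fold change, morphine over saline (vertical axis), against protein length on a log axis (horizontal axis) for the 97 tested coding members, coloured by class. Of the 14 members above 2000 residues 11 stand above 0, and the 3 longest, Kmt2d, Kmt2c and Kmt2a, stand at 0.29, 0.21 and 0.23.

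The members' mean level had a median of 4034 normalized counts in the authors' deposited table. It was 3080 for the other chromatin genes, 1417 for coding genes with no predicted segment and 684 for all tested genes. These counts are not divided by length, and the members' proteins are longer. Their median was 1054 residues, against 592.5, 481 and 475 in the same groups. The part of length in the higher counts was not tested. Divided by the merged exon length in kb, the highest levels among the members were 7234 for Chd3, 6345 for Smarcd1 and 4058 for Smarcc2. Chd3 stood above its NuRD relatives Chd4 (2243) and Chd5 (1647) on this scale. Among the deacetylases, Hdac11 was highest at 2316, before Hdac2 (1190) and Hdac5 (1130), and Hdac7 was lowest at 38.4. Ezh1 had 522 and Ezh2, which is high in dividing progenitors, 33.1, and Smarcd2 had 124 beside its paralogs Smarcd1 and Smarcd3 (1839). Dnmt3b had 1.32, against 362 for Dnmt3a and 369 for Dnmt1. These levels average the libraries fitted, and the deposited means carry no error of their own. Smarcd3 shares 48.2% of its exon bases with genes on the other strand, mainly Chpf2, and Setd1a shares 52.3%, mostly with Gm49388 on its own strand, so their values are uncertain.

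**Figure D4:**
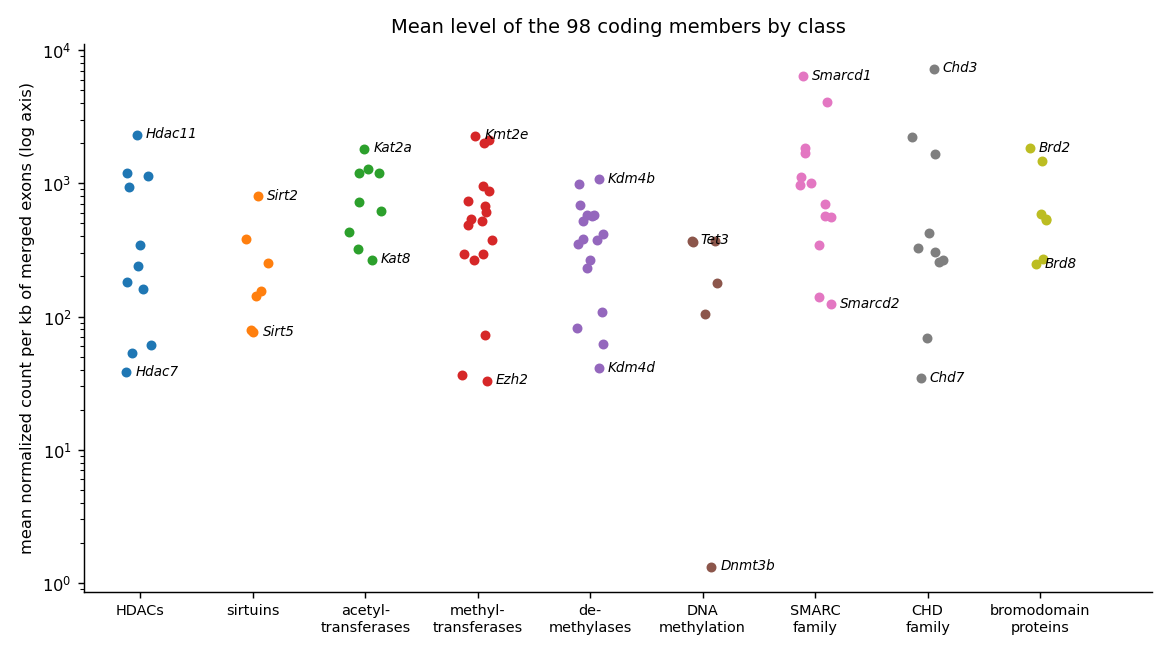
Mean level of the 98 coding members as normalized counts per kb of merged exons (vertical log axis), by class, averaged by the authors over the libraries fitted. The highest and the lowest of each class are named, and they reach from 1.32 for Dnmt3b to 7234 for Chd3.

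Striatal projection neuron markers were present, from 5037 normalized counts for Tac1 to 136520 for Ppp1r1b, and Oprm1 had 658. Of these 11 markers 4 passed as higher in the authors' deposited table, and Oprm1 did not (0.29, adjusted p = 0.350). Markers of other cells were higher after morphine, in 6 of 8 astrocyte genes (median 1.47), 6 of 6 tested microglial genes (2.39), 2 of 5 endothelial and pericyte genes (1.17) and 3 of 4 choroid plexus and ependymal genes (2.55). Of 5 cortical and thalamic markers 3 passed as higher, while Neurod6 (-0.30) and Tbr1 (-0.23, mean 10909) stood below 0 and did not pass. The shares that passed as higher were 11.8% over all tested genes and 46.3% over coding genes with a predicted segment. A change in the number of cells of a type and a change in RNA per cell cannot be told apart in such bulk samples. The part of these cell types in the members' values was not tested.

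Other genes of chromatin regulation were also uncalled. Of 127 listed genes outside the rule, such as Polycomb, NuRD, corepressor, arginine methyltransferase and INO80 genes, 126 were in the table, all of them tested, and 0 passed by DESeq2. Of all tested genes 13.8% passed, and of coding genes with no predicted segment 4.23%. At an unadjusted p under 0.05 there were 7 of the 126, or 5.56%, against 22.2% and 10.9%. The median of the 126 was -0.07 in the authors' deposited table. Of them 48, or 38.1%, stood above 0, against 48.3% of all tested genes and 37.6% of coding genes with no predicted segment. The smallest p values belonged to Dpy30, a subunit shared by KMT2 complexes (-0.43, SE 0.16, adjusted p = 0.0595), the methyl-binding protein gene Mbd6 (0.33, SE 0.13, adjusted p = 0.0737) and the remodeller subunit gene Ino80c (-0.33, SE 0.14, adjusted p = 0.0953) according to the authors' deposited table. Menin, encoded by Men1 and a partner of Kmt2a and Kmt2b, was at 0.34 (SE 0.16, adjusted p = 0.155).

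The called row, Smarca5-ps (ENSMUSG00000052912, chromosome 4, 145464204 to 145467420, GRCm38), is annotated as a transcribed processed pseudogene, a copy of an mRNA inserted in the genome. It fell by 2.06 on the log2 scale (SE 0.64, adjusted p = 0.0126 by DESeq2) at a mean of 27.7 normalized counts in the authors' deposited table. Its parent Smarca5 (chromosome 8, 80698507 to 80739497), the ISWI motor, had 7759 and stood at -0.16. The pseudogene's transcript of 3123 bases aligned over its whole length to the coding sequence of Smarca5 with 96.6% identity, so counts of the pseudogene and of its parent may share reads and are uncertain. The stretch below is shown because it lets a reader see how few letters set the pair apart. It holds 120 bases of each GENCODE M21 transcript from within the part that codes in Smarca5, 5′ to 3′, with the 7 bases that differ in capitals, and was picked as the ungapped window with the most differences, the first where several tied.
Smarca5-ps: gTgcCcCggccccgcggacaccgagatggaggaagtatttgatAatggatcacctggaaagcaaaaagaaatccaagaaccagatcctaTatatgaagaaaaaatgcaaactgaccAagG
Smarca5: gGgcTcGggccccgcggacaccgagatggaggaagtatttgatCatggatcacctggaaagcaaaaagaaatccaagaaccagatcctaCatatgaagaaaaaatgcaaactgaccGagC

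Of 1420 measured pseudogenes, 15 matched a coding member at 90% identity over at least 50% of their length, and 12 of these stood below 0, with a median of -1.04. The 12 that were tested held 3 that fell and 0 that rose, against 2.01% lower and 11.8% higher over all tested genes. Besides Smarca5-ps these were Gm8494, 98.9% identical to Smarce1 (-1.45, SE 0.41, adjusted p = 0.00433), and Gm14026, 97.2% identical to Setd3 (-1.04, SE 0.33, adjusted p = 0.0175) according to the authors' deposited table. The 5 other copies of Smarca5 ran from -1.57 to -0.52 and did not pass or were not tested. Like Smarca5-ps they lie on chromosome 4 and match the same parent, so these copies are not separate cases. The coding parents stood closer to 0, Smarce1 at -0.22 and Setd3 at -0.13. All but Gm14026 of the 15 had a mean under 100. The same counts were not taken over the other measured pseudogenes, so nothing here sets these 15 apart from pseudogenes in general. How the authors' counting treated reads that map to several places is not given in the sources used here, and its part in the values of these copies was not tested.

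**Figure D5:**
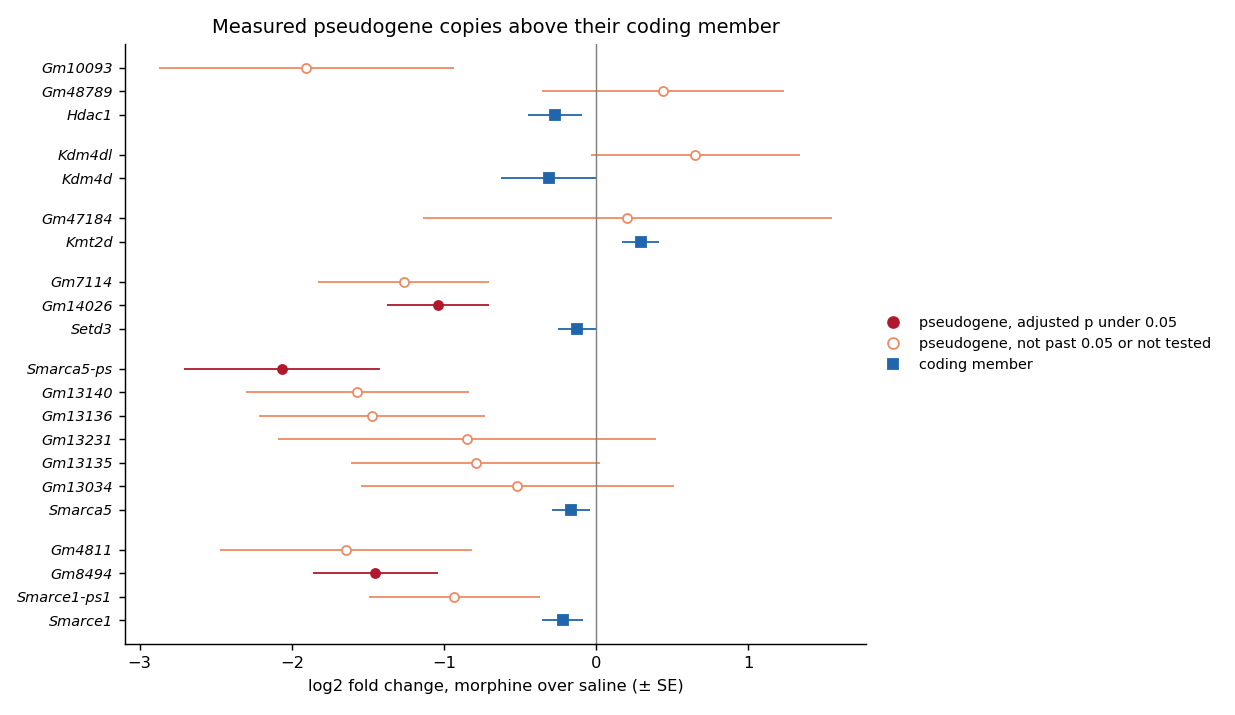
Log2 fold change ± SE, morphine over saline (horizontal axis), of 15 measured pseudogenes (circles, filled where the adjusted p was under 0.05) and of the coding member each one matches (squares). The 3 called copies lie at -2.06, -1.45 and -1.04, while their parents Smarca5, Smarce1 and Setd3 lie at -0.16, -0.22 and -0.13.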

How the data were processed

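The files are 4 sheets of the authors' comparison of morphine with saline libraries, and the smaller sheets held the values of the full one. Per the submitters' processing notes, the tools included STAR 2.6.1d and DESeq2 1.20.0, with GRCm38 and mm10 both named as builds. The read counter, model formula and any left-out library have no source here, and a term in the table's title, RM-out, is not explained, so the libraries behind each SE are not known. The authors' deposited mean level is a signal, counts divided by size factors and averaged. Their deposited fold changes and SEs are log2 values. A score in the deposited table, the Wald statistic, divides one by the other. The deposited p-values are two-sided Wald values with Benjamini-Hochberg adjustment. The adjustment was recomputed over 17279 genes and differed by at most 2.11e-15.

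Symbols, exons and coding sequences came from GENCODE M21 (GRCm38), matched by Ensembl identifier for all 18732 genes. Protein lengths are of the longest coding sequence, since no RefSeq protein table was used. Segments were predicted from Kyte-Doolittle hydropathy, requiring an average of 1.9 or more over 19 residues (membrane), or 2.2 or more over 12 residues among the first 40 (signal). A hit confined to the last 50 residues, or a symbol of a mitochondrial family, put a gene in neither class. Pseudogenes were matched with blastn 2.17.0. Promoters are RefSeq's on GRCm38.p6. The 95% intervals are normal ones from the authors' SE.

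The members, classes, lists and naming rule (members called, the extremes of each class at a mean of at least 100, and listed genes studied in drug response or neuronal chromatin) were chosen with earlier results of these data known. The pseudogene match, the split by length and the subfamilies were chosen after the values were seen. Nothing in the labels says that libraries came from separate litters. No set test was run. The values of 1 member are not reported here on their own, though it stays in the counts. The recomputed adjustment was tested on simulated data. Scripts ran in Python 3.11.15 (matplotlib 3.10.9, scipy 1.17.1, Biopython 1.88, pandas 2.3.3, numpy 2.4.6).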

Additional observations from a re-analysis of the deposited data

How the results depend on the processing

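The count of 1 called row of the rule, Smarca5-ps, stood beside 2383 called over all genes. It was the same with p adjusted over every gene with a p (2339 over all genes). A required log2 change of at least 0.5 also left it the same (2100). It was 0 at an adjusted p of 0.01 (1751 over all genes). Among genes with a mean of at least 100, which leaves out the pseudogene, it was 0 (2148). At an adjusted p of 0.1 it was 4, adding Chd7, Kmt2d and Hdac3 (2861 over all genes). With values centred on coding genes with no predicted segment it was 3, adding Chd7 and Kmt2d (2589 over all genes). Other chromatin genes went to 3 called at 0.1, Dpy30, Ino80c and Mbd6, against 0. The share of coding members above 0 was 32.0%, and 56.7% after that centring, which moved every value by 0.06. Over all tested genes these shares were 48.3% and 57.2%. Over coding genes with no predicted segment they were 37.6% and, by construction, 50%. Of the 10 medians (members and classes), 8 were below 0, and 4 after centring: it put all members at 0.03, sirtuins at 0.04, methyltransferases at 0.06 and demethylases at 0.03. With weighted means 7 were below 0, and methyltransferases were at 0.04. Leaving out single libraries was not run, because the files used here hold no values per library. No paired analysis was possible because the comparison table carries no library columns. Depth per library is unknown, so precision rests on the authors' SEs.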

Other observations

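The 5 X-linked coding members, Hdac6, Hdac8, Kdm5c, Kdm6a and Smarca1, ran from -0.27 to 0.10 in the authors' deposited table, with a median of -0.08, and the 92 autosomal ones had a median of -0.04. Promoters of 78 of the 97 tested coding members were found in the RefSeq table, each of 300 bases of which 250 lie before the start. The promoter richest in CpG had a median of 28 CpG pairs per member, against 30 over 100 other chromatin genes and 22 over 10851 tested coding genes, from 1 in Setd5 to 65 in Kdm7a. The letters TGACGTCA, the palindromic cAMP response element, which reads the same on both strands, were in 0 of these 78 members, against 3.53% of the tested coding genes and 5 of 100 other chromatin genes. That these letters are absent from these windows says nothing of the factors that bind such sites.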
